A study of Homo sapiens with 12 samples.

Results

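The response of each gene to TTK knockdown was compared between CAL-27 and SCC-15, established lines of human oral squamous cell carcinoma, to find the genes whose response to knockdown differed between the 2 lines. The measure was the interaction: the log2 change of shTTK against shControl in SCC-15 minus the same log2 change in CAL-27. A positive interaction means that the gene moved more upward, or less downward, in SCC-15. Genes were included when they averaged at least 10 counts over the 6 libraries of each line, which left 13887 of the 58735 lines of the count table, and all 13887 were among the 16946 genes that the model fitted. All 12 libraries of the series entered, 3 for each of the 4 groups. They were CAL-27 cells labelled shControl, CAL-27 cells with a short hairpin against TTK (shTTK), SCC-15 cells labelled shControl and SCC-15 cells with shTTK. The labels call the control cells wild type and untreated as well as shControl, so whether they carried a control hairpin is not settled, and neither the hairpin sequence nor the number of clones is given. All libraries are labelled as batch 1. Separate cultures are not stated for the replicates, so the spread behind the p-values is that of these libraries and may be technical.

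TTK, also called MPS1, is a kinase that sits at kinetochores not yet attached to the spindle. There it starts the spindle assembly checkpoint by phosphorylating the scaffold KNL1, which recruits the BUB and MAD proteins that hold back the anaphase-promoting complex. Squamous carcinoma cells keep a keratinocyte identity with a basal state (KRT5, KRT14, TP63, hemidesmosomes) and a differentiating state (involucrin, small proline-rich proteins, kallikreins), and they can also carry simple-epithelial keratins and mesenchymal genes. The title of the series names mTORC1, the growth kinase complex, and NF-kB, the inflammatory transcription factor family.

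The libraries held 16176655 to 18484112 counts. Library 1 of each SCC-15 group was the most distant replicate, at a mean chi-square per gene of 5.62 and 5.96 (shControl) and 3.07 and 3.79 (shTTK) against 1.98 and 1.95 between the other libraries of each group; the CAL-27 pairs lay between 2.37 and 2.89. All 11 keratinocyte markers were detected in every group. Their summed level was 3780 to 3920 CPM in CAL-27 controls and 6040 to 6090 with shTTK, and 8630 to 9050 and 8330 to 8400 in SCC-15. These marker values are CPM of the unscaled library totals; all other gene values are TMM-scaled CPM, counts relative to the library sizes after TMM scaling. For single genes the 3 libraries of a group are listed in the order of their numbers, and where 2 groups are joined by "against" the control comes before shTTK. Fibroblast, endothelial, leukocyte and melanocyte lists of 4 to 9 markers summed to at most 42.4 CPM in every library, except the endothelial list in CAL-27, at 102 to 108 CPM in controls and 73.1 to 75.4 with shTTK. CDH5 made up nearly all of that sum (104 ± 3.82 and 71.9 ± 0.365 CPM, SD, n = 3), while the endothelial receptor KDR had 0 counts in all 4 groups. In bulk RNA, fewer cells of a kind and less RNA per cell cannot be told apart.

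TTK itself was lower with shTTK in both lines, and further down in SCC-15. The 3 CAL-27 control libraries had 46.4, 48.4 and 53.4 CPM and the shTTK libraries 35.6, 32.5 and 33.5, a log2 change of -0.54 ± 0.066 (SE). In SCC-15 the values were 67.5, 69.4 and 72.95 in controls and 26.9, 29.2 and 34.3 with shTTK, a log2 change of -1.21 ± 0.065. The groups did not overlap in either line. The TTK mRNA left was 68.6% in CAL-27 and 43.1% in SCC-15, and the interaction was -0.67 ± 0.093 with an edgeR adjusted p of 2.37e-08. The depth of the knockdown therefore differed between the lines, and for every gene below a difference between the lines and a difference between knockdown depths cannot be told apart.

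Across the 13887 genes the log2 changes of the lines were almost uncorrelated, and 6834 genes (49.2%) were called in neither line nor for the interaction. Of genes called in both lines, 480 rose in both and 667 fell in both, while 793 had opposite signs and a called interaction. The interaction was called, at a Benjamini-Hochberg adjusted p under 0.05 in edgeR's quasi-likelihood test, for 4117 genes (29.6%). It was positive for 2197 of them (15.8% of those tested) and negative for 1920 (13.8%). Within a line, knockdown raised 1776 genes in CAL-27 (12.8%) and lowered 2500 (18%), and raised 2180 in SCC-15 (15.7%) and lowered 2261 (16.3%). Over genes, the log2 changes in CAL-27 and SCC-15 had a Pearson r of 0.0426 and a Spearman rho of 0.0811. These are descriptions across 13887 genes, which are not independent; the 2 changes share no library, only the labelled batch and the normalization. The spread of the changes was alike, with an SD of 0.32 in CAL-27 and 0.33 in SCC-15.

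Most called interactions were small. The median size was 0.38 on the log2 scale and the smallest was 0.105, 1381 genes reached 0.5 (574 positive, 807 negative), 465 reached 1 (148 positive, 317 negative) and 59 reached 2 (13 positive, 46 negative). Positive interactions were thus the more numerous in all, and negative ones were the more numerous at 0.5 and above. With 1 library left out, positive calls ranged from 1838 to 2140 and negative calls from 1699 to 1950. Without SCC-15 control replicate 3 negative calls were the more numerous (1838 positive, 1863 negative), so the majority over all calls was not stable. Calls followed expression level: 13.2% of genes in the lowest quartile of expression (by the mean count of the lower line) were called, with a median size of 1.2. In the highest quartile 48.4% were, with a median size of 0.258. In the lowest quartile a difference had to be large to be detectable at this depth. Of 11866 protein-coding genes 32.9% were called, of 367 lincRNAs 13.4% and of 572 antisense genes 8.39%. Just inside the inclusion rule, 18 of 185 genes with a lower-line mean of 10 to 11 counts were called; just outside it, 21 of 223 fitted genes with a mean of 9 to 10 were.

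The called genes were sorted by what each line did. Of the 4117, 793 (5.71% of those tested) were called in both lines with opposite signs: 305 rose in CAL-27 and fell in SCC-15 (2.2%), and 488 fell in CAL-27 and rose in SCC-15 (3.51%). Changes of at least 0.5 in each line left 39 and 24 of these. A further 539 rose and 768 fell in CAL-27 with no call in SCC-15, while 693 rose and 729 fell in SCC-15 with no call in CAL-27. Another 276 were called for the interaction although neither line alone passed its test. In the same direction, 480 genes rose in both lines and 667 fell in both; the interaction was called for 119 and 200 of these, and for 380 and 545 the 95% interval of the interaction lay within 0.5 of 0. Over all genes, 7394 (53.2%) had such an interval.

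**Figure D1:**
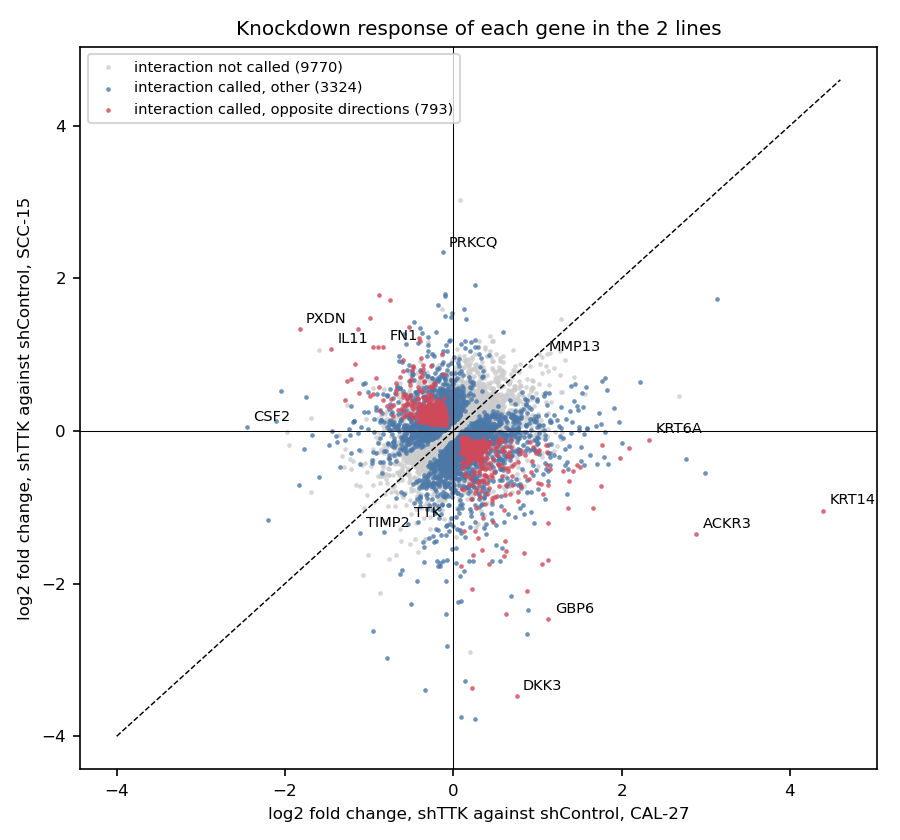
Log2 fold change of shTTK against shControl in CAL-27 (x axis) and in SCC-15 (y axis) for each of the 13887 genes, with the line of equal change dashed. The cloud has no tilt along the dashed line (Pearson r of 0.0426), 793 genes called in opposite directions (red) fill the upper left and lower right fields, and KRT14 lies farthest to the right.

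Among the genes that rose in CAL-27 and fell in SCC-15, KRT14, the keratin of basal keratinocytes (chr17:41582279-41586921 in GRCh38, as are all gene positions here), had the largest interaction. Its CAL-27 control libraries had 3.203, 4.33 and 2.79 CPM and its shTTK libraries 69.8, 74.5 and 75.2. In SCC-15 controls it stood at 729, 767 and 793 CPM, and with shTTK at 379.6, 358 and 371. TTK knockdown thus went with a rise of 4.40 ± 0.075 in the line where KRT14 was scarce and a change of -1.04 ± 0.035 in the line where it was abundant, and the interaction was -5.44 ± 0.083 (edgeR adjusted p = 1.21e-50). SCC-15 with shTTK still had more KRT14 than CAL-27 with shTTK.

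ACKR3 (chr2:236567787-236582358), an atypical receptor that binds the chemokine CXCL12, had 2.57, 2.63 and 2.601 CPM in CAL-27 controls and 19.9, 20.3 and 17.8 with shTTK, and 5.37, 4.93 and 5.69 in SCC-15 controls and 2.099, 2.54 and 1.62 with shTTK. The 2 lines exchanged their order: the higher line among controls was SCC-15 and the higher line after knockdown was CAL-27. The changes were 2.89 ± 0.15 and -1.35 ± 0.18, with an interaction of -4.24 ± 0.23 (edgeR adjusted p = 3.22e-26). GBP6 (chr1:89364058-89386461), a guanylate-binding GTPase, went from 3.32, 1.65 and 3.41 to 6.22, 5.38 and 6.64 CPM in CAL-27 and from 1.71, 2.18 and 2.23 to 0.408, 0.173 and 0.503 in SCC-15, with an interaction of -3.60 ± 0.42 (edgeR adjusted p = 4.8e-11). Groups did not overlap in either line for ACKR3 or GBP6, though the SCC-15 values of GBP6 rest on few counts.

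PPP2R2B (chr5:146581146-147084784), a regulatory subunit of protein phosphatase 2A, had 3.26, 3.62 and 4.09 CPM in CAL-27 controls, 7.76, 8.399 and 7.81 in CAL-27 shTTK, 4.29, 2.81 and 3.34 in SCC-15 controls and 1.52, 1.04 and 0.671 in SCC-15 shTTK. IFI44L (chr1:78619922-78646145), an interferon-induced gene, had 4.29, 5.04 and 5.14, then 9.42, 12.1 and 10.2 in CAL-27, and 3.43, 3.33 and 4.16, then 2.33, 1.15 and 1.23 in SCC-15. For both genes the control levels of the lines lay close together and the shTTK levels lay far apart. Their interactions were -2.83 ± 0.31 and -2.34 ± 0.27 (edgeR adjusted p = 4.48e-12 and 6.96e-11). AKR1C2 (chr10:4987400-5018031), an aldo-keto reductase that acts on steroids, moved from 2.17, 1.32 and 1.67 to 5.91, 5.62 and 4.74 CPM in CAL-27 and from 28.3, 29.8 and 24.5 to 14.2, 14.98 and 11.8 in SCC-15. MMP28 (chr17:35756249-35795707), the matrix metalloproteinase epilysin, moved from 4.23, 7.24 and 6.01 to 15.5, 14.8 and 14.6 and from 26.2, 26.1 and 23.7 to 12.1, 12.96 and 12.8. MMP28 ended at nearly the same level in the shTTK libraries of both lines, from controls that lay far apart. Interactions were -2.67 ± 0.21 for AKR1C2 and -2.37 ± 0.16 for MMP28 (edgeR adjusted p = 4.83e-18 and 9.17e-22). ZNF750 (chr17:82829435-82840578), a transcription factor of epidermal differentiation, was the most variable of these 8 genes. Its CAL-27 controls ranged over 1.601, 5.26 and 3.65 CPM against 8.01, 6.68 and 7.26 with shTTK, and its SCC-15 values were 8.57, 10.4 and 7.74 against 1.69, 3.57 and 2.74. The interaction of ZNF750 was -2.79 ± 0.49, and its edgeR adjusted p of 0.00172 was the largest of the 8.

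A fall in CAL-27 and a rise in SCC-15 was the reverse pattern. FN1 (chr2:215360440-215436172), which encodes fibronectin, had 258, 265 and 268 CPM in CAL-27 controls and 158, 148 and 138 with shTTK. In SCC-15 it had 50.8, 54.1 and 50.9 in controls and 110.0, 105 and 119 with shTTK. The wide gap between the controls of the lines narrowed after knockdown, with changes of -0.83 ± 0.04 and 1.10 ± 0.046 and an interaction of 1.93 ± 0.061 (edgeR adjusted p = 1.13e-37). PXDN (chr2:1631887-1744852), peroxidasin, which cross-links collagen IV, fell from 3.77, 2.69 and 2.85 to 1.29, 0.828 and 0.492 CPM in CAL-27 and rose from 19.5, 18.4 and 18.0 to 49.5, 45.8 and 45.8 in SCC-15. Here the line with the higher control level gained and the line with the lower level lost, and the interaction of 3.16 ± 0.24 was the largest positive value of any gene named here (edgeR adjusted p = 2.22e-18).

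IL11 (chr19:55364389-55370463), a cytokine of the interleukin-6 family, had 3.83, 3.45 and 3.72 CPM in CAL-27 controls and 1.35, 1.597 and 1.05 with shTTK, and 1.94, 2.75 and 2.81 in SCC-15 controls and 4.199, 5.07 and 6.54 with shTTK. The order of the lines was exchanged, and the interaction was 2.53 ± 0.32 (edgeR adjusted p = 8.29e-10). DUSP4 (chr8:29333064-29350668), a phosphatase that switches off MAP kinases, fell from 240.4, 272 and 246 to 116, 101 and 109.6 in CAL-27 and rose from 18.6, 19.9 and 19.4 to 29.4, 33.01 and 30.8 in SCC-15, with an interaction of 1.90 ± 0.082 (edgeR adjusted p = 3.22e-26). NRP1 (chr10:33177492-33336262), a co-receptor for semaphorins and VEGF, moved from 15.3, 18.04 and 14.9 to 7.76, 6.39 and 7.38 and from 1.94, 2.01 and 1.52 to 3.03, 3.399 and 3.69. DUSP4 and NRP1 stayed higher in CAL-27 than in SCC-15 before and after knockdown.

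MGAT5B (chr17:76868456-76950393), an N-acetylglucosaminyltransferase, moved from 25.7, 22.8 and 24.9 to 12.6, 13.5 and 11.6 CPM in CAL-27 and from 1.77, 2.52 and 1.701 to 4.84, 4.09 and 3.97 in SCC-15. PADI4 (chr1:17308195-17364004), which converts arginine to citrulline in proteins, moved from 4.98, 4.99 and 5.26 to 2.89, 2.78 and 3.38 and from 0.286, 0.746 and 1.29 to 2.39, 2.02 and 3.24. GPAT3 (chr4:83535914-83605875), an acyltransferase of glycerolipid synthesis, started at a like level in the lines, 11.4, 10.97 and 12.9 and 10.7, 11.9 and 12.7 CPM in CAL-27 and SCC-15 controls, and parted to 7.14, 6.45 and 5.04 and 19.9, 19.1 and 17.99 with shTTK. Interactions of NRP1, MGAT5B, PADI4 and GPAT3 were 2.05 ± 0.24, 2.06 ± 0.21, 2.47 ± 0.37 and 1.61 ± 0.16, with edgeR adjusted p values between 2.63e-13 and 1.11e-07. In all 8 genes the shTTK and control libraries did not overlap in either line, as the rule that chose these 16 genes required.

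**Figure D2:**
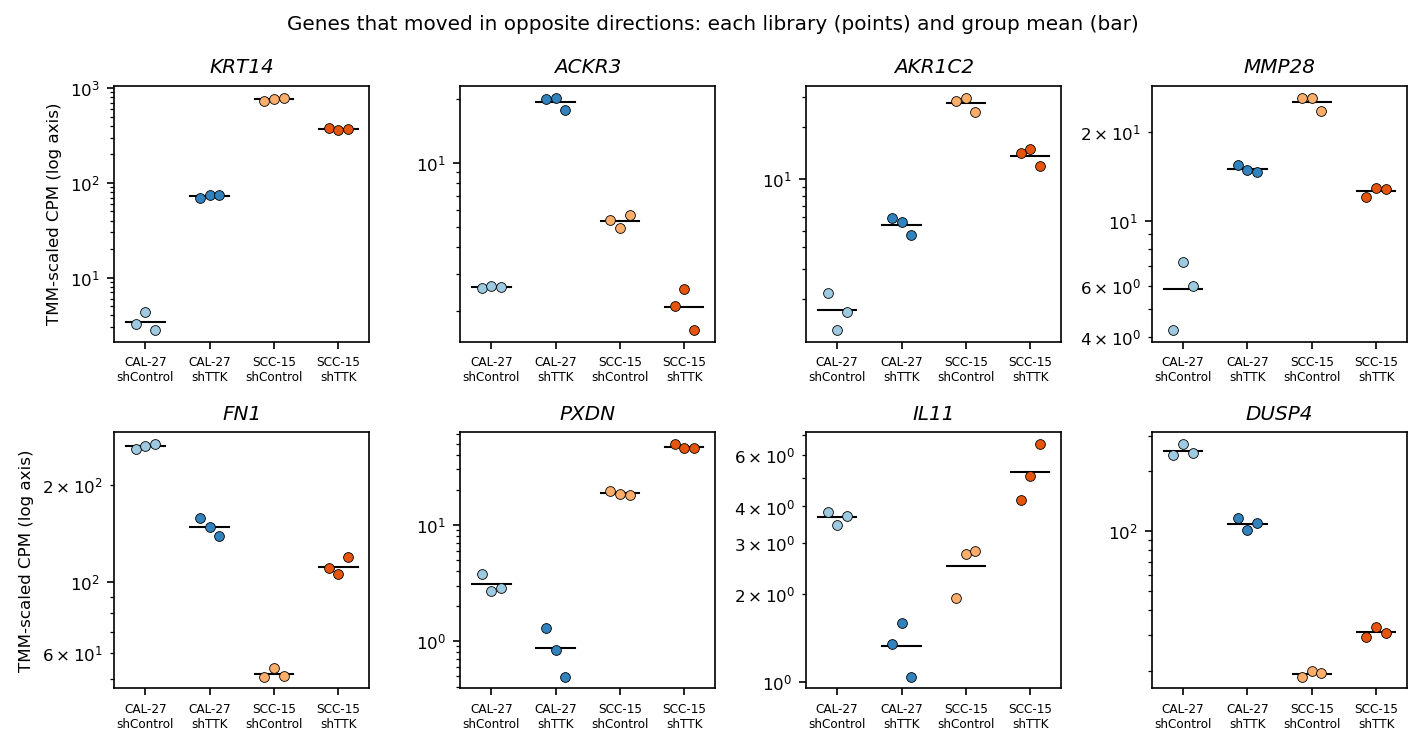
TMM-scaled CPM (log axis, its range set for each gene) of 8 of the 16 genes that moved in opposite directions, 1 point per library and a bar at the mean of the 3 libraries of a group. In the upper row shTTK is above control in CAL-27 and below it in SCC-15, and in the lower row the order is reversed.

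Promoter sequences were read for these genes to show what the letters next to their start sites hold, since AP-1 and CREB are factors through which kinase signals reach promoters. RefSeq gave a promoter (GRCh38.p14) for 9826 of the tested genes. The RefSeq start of a gene can lie away from the end of the gene span printed above. The windows of MGAT5B, PPP2R2B, IFI44L, AKR1C2 and PXDN lie inside that span, and those of FN1 and GPAT3 reach well into it. The 5 motifs searched on both strands of the 250 bases before the start were the AP-1 site TGANTCA, the cyclic AMP element TGACGTCA, the TEAD site GGAATG, the sterol element TCACNCCAC and the NF-kB consensus. Promoters were read for 10 of the 16 opposite genes. An AP-1 match stood in 4 of them, a cyclic AMP element in FN1 and 2 overlapping NF-kB consensus matches in GPAT3, while PPP2R2B, IFI44L, AKR1C2 and PXDN held no match and no TEAD or sterol letters were found in the 10. The 6 sequences with a match are shown; capitals mark the match, and each sequence runs 5′ to 3′ on the strand of its gene.
IL11 (chr19:55370464-55370713, minus strand): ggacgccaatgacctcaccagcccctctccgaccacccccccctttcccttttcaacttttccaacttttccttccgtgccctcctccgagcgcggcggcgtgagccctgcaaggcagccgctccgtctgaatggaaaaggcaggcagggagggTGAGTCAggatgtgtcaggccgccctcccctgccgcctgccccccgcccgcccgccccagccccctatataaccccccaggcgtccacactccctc
PADI4 (chr1:17307947-17308196, plus strand): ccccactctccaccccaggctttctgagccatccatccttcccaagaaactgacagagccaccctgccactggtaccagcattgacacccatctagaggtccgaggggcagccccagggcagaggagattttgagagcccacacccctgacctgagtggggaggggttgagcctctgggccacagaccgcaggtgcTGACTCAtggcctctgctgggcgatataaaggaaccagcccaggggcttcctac
MGAT5B (chr17:76872397-76872646, plus strand): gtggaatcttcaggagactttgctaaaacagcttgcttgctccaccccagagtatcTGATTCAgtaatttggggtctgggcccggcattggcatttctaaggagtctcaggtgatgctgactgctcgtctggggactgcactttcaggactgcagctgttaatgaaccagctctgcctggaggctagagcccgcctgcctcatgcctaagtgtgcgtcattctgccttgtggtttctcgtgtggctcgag
GBP6 (chr1:89363809-89364058, plus strand): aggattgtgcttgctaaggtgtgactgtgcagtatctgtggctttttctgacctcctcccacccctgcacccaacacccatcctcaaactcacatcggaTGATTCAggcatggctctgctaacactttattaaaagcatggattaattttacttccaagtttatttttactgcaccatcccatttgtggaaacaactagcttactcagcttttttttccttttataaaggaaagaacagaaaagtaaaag
FN1 (chr2:215436069-215436318, minus strand): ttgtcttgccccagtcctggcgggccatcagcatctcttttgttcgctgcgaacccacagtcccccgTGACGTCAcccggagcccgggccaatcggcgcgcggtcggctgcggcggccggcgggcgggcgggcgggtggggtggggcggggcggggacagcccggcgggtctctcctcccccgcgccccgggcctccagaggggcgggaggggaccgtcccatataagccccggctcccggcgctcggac
GPAT3 (chr4:83535857-83536106, plus strand): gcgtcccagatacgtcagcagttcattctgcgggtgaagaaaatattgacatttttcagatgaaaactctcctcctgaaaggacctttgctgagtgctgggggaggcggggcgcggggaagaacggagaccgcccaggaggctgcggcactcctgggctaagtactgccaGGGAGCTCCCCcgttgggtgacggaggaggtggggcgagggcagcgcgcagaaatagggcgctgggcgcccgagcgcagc

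The AP-1 letters were in 6.6% of all 27305 promoters of the table and in 3.96% of the 9826 tested genes with a promoter. Among genes with an interaction of -1 or lower the share was 12.2% (22 of 181), and among genes at 1 or higher it was 9.47% (9 of 95). Tested genes of the lowest quartile of expression had 6.21% (104 of 1674). Over all genes with a negative call the share was 5.4%, and over those with a positive call 3.19%. The NF-kB consensus was in 9.57% of all promoters, 11.8% of tested genes, 11.7% of genes with a negative call and 11.1% of those with a positive call. Of all promoters 1.77% held the cyclic AMP element, 11.9% the TEAD site and 0.875% the sterol element, and of tested genes 2.98%, 9.38% and 0.835% did. These shares describe letters in a fixed window and were given no test; a match is not a bound site.

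Some of the largest interactions came from a change in only 1 of the lines. CSF2, which encodes the cytokine GM-CSF, had 46.7, 51.9 and 47.2 CPM in CAL-27 controls and 10.2, 6.39 and 10.03 with shTTK. In SCC-15 it had 0.914, 0.918 and 0.8796 against 1.05, 0.691 and 1.06, where the groups overlapped. The change was -2.46 ± 0.10 in CAL-27 and 0.048 ± 0.31 in SCC-15, and the interaction was 2.50 ± 0.34 (edgeR adjusted p = 1.38e-08). PRKCQ, protein kinase C theta, did the reverse: 4.98, 5.65 and 6.01 against 5.73, 4.85 and 4.68 in CAL-27, which overlapped, and 0.229, 0.344 and 0.293 against 1.46, 1.55 and 1.45 in SCC-15, with an interaction of 2.46 ± 0.41 (edgeR adjusted p = 1.54e-06).

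Near-complete losses in SCC-15 made up the other extreme. UGT8, which makes galactosylceramide, fell from 3.54, 4.76 and 2.93 to 0.233, 0.346 and 0.224 CPM in SCC-15 and was at 12.5, 13.4 and 14.9 against 18.7, 16.4 and 13.5 in CAL-27. CPE, carboxypeptidase E of the secretory pathway, fell from 1.2, 1.49 and 0.645 to 0.0583, 0.0576 and 0.112 in SCC-15, where the 3 shTTK libraries held 4 counts together, and was at 5.89, 5.32 and 5.51 against 6.404, 7.22 and 4.25 in CAL-27. Both genes lie on chromosome 4, and neither was called in CAL-27. DKK3, a secreted protein of the dickkopf family, fell from 3.14, 3.85 and 3.401 to 0.3499, 0.173 and 0.391 in SCC-15 but rose from 29.7, 32.7 and 35.3 to 54.7, 55.2 and 54.8 in CAL-27, so it also belongs to the genes with opposite calls. Interactions were -4.03 ± 0.33, -3.84 ± 0.59 and -4.23 ± 0.28 (edgeR adjusted p = 8.7e-17, 1.68e-07 and 6.21e-22).

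Where both lines moved the same way, the size still differed for some genes. Of the 119 that rose in both with a called interaction, 89 rose more in CAL-27, and of the 200 that fell in both, 137 fell more in SCC-15. NGFR, the low-affinity neurotrophin receptor found on basal keratinocytes, went from 19.8, 22.6 and 24.3 to 96.7, 113 and 100.3 CPM in CAL-27 and from 10.6, 11.2 and 12.8 to 19.6, 17.3 and 16.8 in SCC-15, changes of 2.22 ± 0.069 and 0.64 ± 0.093. CRIP2, a LIM-domain protein, and PELI2, an E3 ubiquitin ligase, also rose more in CAL-27, with interactions of -1.61 ± 0.28 and -1.29 ± 0.21. IFITM2, an antiviral membrane protein whose reads may be shared with its near copies, rose more in SCC-15 (22.9, 22.04 and 21.5 to 46.6, 46.7 and 49.7 CPM) than in CAL-27 (45.6, 47.6 and 49.7 to 55.5, 58.5 and 56.4). LAPTM5, a lysosomal membrane protein, and CELSR3, a cadherin receptor, did likewise, with interactions of 1.48 ± 0.26 and 0.70 ± 0.14. LAPTM5 rests on 35 counts in the SCC-15 control group and 108 in the shTTK group, and its interaction ranged from 1.15 to 2.10 without 1 library. The edgeR adjusted p values of these 6 genes lay between 4.21e-18 and 0.000598.

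Among genes that fell in both lines, CCND2, cyclin D2, fell further in CAL-27 (6.41, 7.57 and 5.45 to 1.72, 2.01 and 1.97 CPM) than in SCC-15 (33.3, 33.97 and 35.3 to 28.3, 27.1 and 31.7). ZBED6CL and LRRC61 shared that pattern, with interactions of 0.99 ± 0.087 and 0.92 ± 0.067; the annotation places ZBED6CL inside the span of LRRC61 on the same strand, so their counts may not be separate. DNM1, the GTPase dynamin 1, fell further in SCC-15 (34.0, 33.8 and 31.9 to 10.5, 11.5 and 8.49) than in CAL-27 (51.4, 50.5 and 49.3 to 41.6, 45.96 and 44.5). GPR176, an orphan receptor, and SLIT2, a secreted guidance factor, did so too, with interactions of -1.59 ± 0.18 and -1.67 ± 0.51 (edgeR adjusted p = 1.28e-11 and 0.00907). SLIT2 rests on 9 counts in the SCC-15 shTTK group, and its call was lost without SCC-15 shTTK replicate 2 (-1.28, edgeR adjusted p = 0.0778).

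A set of genes answered alike in both lines. MMP13, collagenase 3, rose by 1.05 in CAL-27 (5.95, 4.99 and 7.68 to 12.4, 12.1 and 13.9 CPM) and by 0.97 in SCC-15 (51.7, 53.5 and 53.6 to 108, 104 and 98.8), with an interaction of -0.088 and a 95% interval of -0.33 to 0.16. ANO1, a calcium-activated chloride channel, AUTS2, PTHLH, the parathyroid hormone-like hormone, and MYH14, a non-muscle myosin, also rose in both, and their intervals all lay within 0.5 of 0. ATP1B1, the beta subunit of the sodium pump, fell in both (changes of -0.81 in CAL-27 and -0.83 in SCC-15), from 549.5, 580.2 and 562 CPM in CAL-27 controls and 68.5, 64.4 and 62.4 in SCC-15 controls, with an interval of -0.13 to 0.095. PCOLCE2, HMGCS1 and AK4P1, a pseudogene whose reads may be those of AK4, fell in both with intervals inside the same bound. TIMP2, an inhibitor of metalloproteinases, fell in both, with changes of -1.11 and -1.34, and its interaction of -0.23 ± 0.066 was called (edgeR adjusted p = 0.00449), though not against the median of its chromosome (-0.1156, edgeR adjusted p = 0.221).

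Gene lists were then described by how many tested members had a called interaction, beside 29.6% of all tested genes (15.8% positive, 13.8% negative). The 29 lists held 941 tested entries and 867 different genes, 69 of which stand in more than 1 list, and they were drawn up with earlier results of these data known, so their counts are descriptions. Calls are more frequent among well-expressed genes, as the split by expression shows, and that part of a list's share was not tested.

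**Figure D3:**
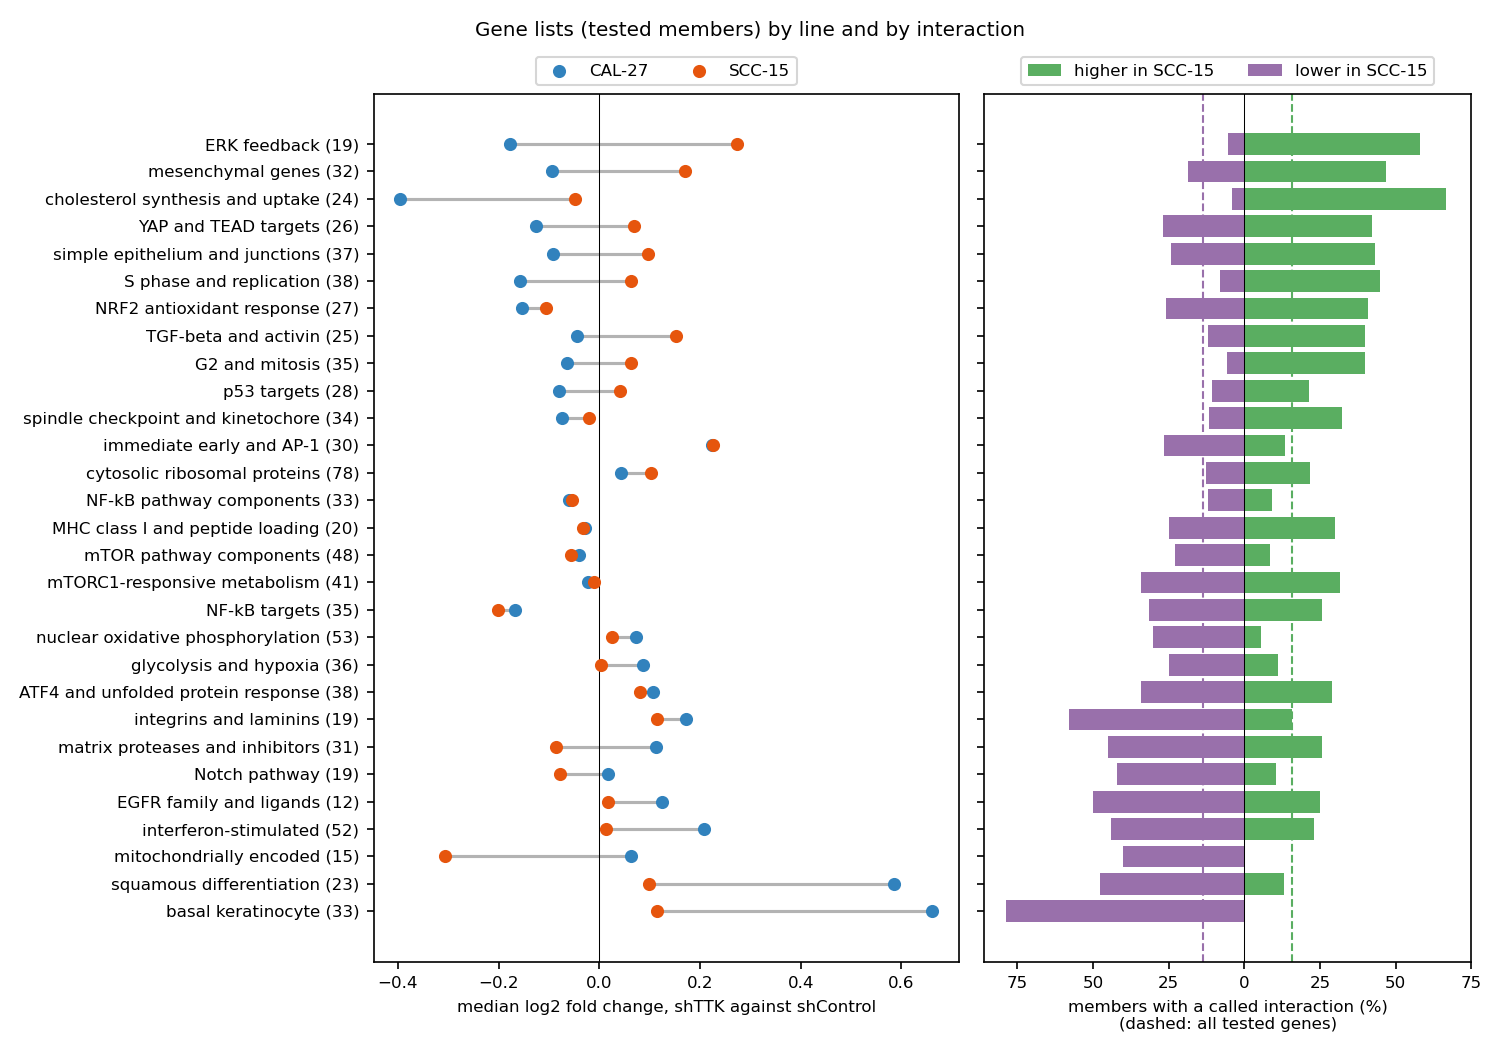
Left, the median log2 change of each list's tested members (number in parentheses) in CAL-27 and SCC-15; right, the percentage of members with a positive (higher in SCC-15) or negative (lower in SCC-15) called interaction, with the same over all tested genes dashed. ERK feedback, mesenchymal and cholesterol genes stand at the top, and the basal keratinocyte list, with 26 of 33 members negative and none positive, stands at the bottom.

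The basal keratinocyte list had the lowest median interaction of the 29 lists. In CAL-27, 26 of 33 members rose and 1 fell, while in SCC-15 14 rose and 10 fell. The interaction was negative for 26 (78.8%) and positive for none (1 without CAL-27 control replicate 1 or SCC-15 shTTK replicate 3), with a median of -0.63 (median change 0.66 in CAL-27 and 0.115 in SCC-15), and 8 members rose in CAL-27 and fell in SCC-15. Those 8 were KRT14, KRT6A, KRT15, KRT5, TP63, TRIM29, EGFR and CAV1. KRT5, the partner keratin of KRT14, had 859, 921 and 878 CPM in CAL-27 controls and 1917, 1898 and 1955 with shTTK, and 2638, 2689 and 2647 against 2207, 2234 and 2173 in SCC-15. KRT6A, a keratin of activated epidermis, had 41.2, 43.3 and 40.8 against 211, 212 and 207 in CAL-27, and 1403, 1556 and 1594 against 1368, 1393 and 1446 in SCC-15. In CAL-27 both keratins rose by more than 1 on the log2 scale with no overlap of groups. In SCC-15 the shifts were -0.27 and -0.11, with no overlap for KRT5 and overlapping groups for KRT6A. Interactions were -1.39 ± 0.038 and -2.44 ± 0.053 (edgeR adjusted p = 1.52e-44 and 5.72e-42).

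The other negative members of the basal list included PKP1, NGFR, KRT17, DSC3, KRT16, KRT6B, DSG3, BCL11A, SOX2, COL17A1, DLK2, LAMA3, ITGA3, ITGA6, COL7A1, LAMB3 and ITGB4. Keratin reads may be shared between close paralogs such as KRT6A and KRT6B or KRT14, KRT16 and KRT17. Counts were also made without chromosomes 4, 12, 15, 17 and 20, chosen after their medians were seen. Chromosome 19 was kept, though its median interaction (0.105) was farther from 0 than those of 12 (-0.0797) and 15 (-0.0933). On the chromosomes kept, 16 of 22 basal members were negative and none positive.

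Of 54 listed squamous differentiation genes 23 had enough counts in both lines to be tested, and of these 11 were negative and 3 positive, with a median interaction of -0.45. In CAL-27 14 rose and 1 fell, and in SCC-15 7 rose and 4 fell. SLPI, a secreted protease inhibitor, had 54.9, 57.2 and 51.3 CPM in CAL-27 controls and 91.7, 82.98 and 88.7 with shTTK, and 96.1, 95.2 and 92.6 against 92.2, 84.2 and 85.3 in SCC-15 (interaction -0.80 ± 0.068, edgeR adjusted p = 1.51e-16). KLF4, a transcription factor of differentiating keratinocytes, had 101, 120.5 and 110.0 against 218, 236 and 211 in CAL-27 and 78.9, 78.3 and 76.6 against 78.1, 70.5 and 71.1 in SCC-15, with an interaction of -1.10 ± 0.075. KRT80, a keratin of terminal differentiation, was 1 of the 3 positive members (1.22 ± 0.044; the others were CNFN and LYPD3). It fell from 554, 566 and 559 to 358, 338 and 354 in CAL-27 and rose from 249.1, 247 and 244 to 364, 348 and 364 in SCC-15. With a minimum mean of 50 counts in each line in place of 10, 7 members were negative, and outside the 5 chromosomes left out 6 of 15 were.

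Of 37 tested genes of simple-epithelial keratins and cell junctions 16 were positive and 9 negative (13 and 5 of 28 outside the 5 chromosomes left out), with a median interaction of 0.15, and 9 fell in CAL-27 and rose in SCC-15: PKP3, ST14, TJP3, OCLN, CDH1, KRT18, KRT7, KRT8 and CLDN4. KRT8, the main type II keratin of simple epithelia, had 1842, 1880.0 and 1806 CPM in CAL-27 controls and 1155, 1120.0 and 1163 with shTTK, and 814, 841 and 838 against 1176, 1160.0 and 1148 in SCC-15. Its partner KRT18 had 671, 671 and 659 against 457, 462 and 447 in CAL-27, and 304, 306 and 310.2 against 399, 390.2 and 390.3 in SCC-15. Interactions were 1.17 ± 0.039 and 0.91 ± 0.042 (edgeR adjusted p = 4.47e-39 and 2.51e-30). CDH1, E-cadherin, was far lower in SCC-15, with 23.1, 24.7 and 24.6 in controls and 39.2, 39.9 and 42.5 with shTTK against 444, 459 and 448 against 423, 417 and 413 in CAL-27. It rose in SCC-15 by 0.75 ± 0.051 and fell in CAL-27, a change of -0.11 ± 0.032 on the log2 scale. KRT19 went the other way from KRT8 and KRT18, with a change of 1.27 in CAL-27 and -0.07 (not called) in SCC-15; it was picked for mention after its values were seen.

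Of 32 tested mesenchymal and matrix genes 15 were positive and 6 negative, with a median interaction of 0.43, the second highest of the 29 lists. The collagens COL4A1, COL4A2 and COL5A1, with FN1 and PLAUR, fell in CAL-27 and rose in SCC-15, while MMP2 and TNC did the opposite. COL5A1 had 63.4, 63.4 and 68.5 CPM in CAL-27 controls and 51.05, 51.4 and 49.8 with shTTK, and 118, 119 and 125 against 172, 165 and 158 in SCC-15. PLAUR, the urokinase receptor, had 62.97, 68.5 and 61.9 against 42.4, 40.9 and 41.4, then 26.0, 23.6 and 25.3 against 43.9, 39.0 and 39.8. Interactions were 0.81 ± 0.063 and 1.34 ± 0.089 (edgeR adjusted p = 4.44e-18 and 1.3e-21).

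Of 19 integrins and laminins 11 were negative and 3 positive, with a median of -0.18. ITGB5, the beta subunit of a vitronectin receptor, was positive at 0.69 ± 0.069, and ITGA3, a laminin receptor subunit, negative at -0.33 ± 0.04. HSPG2, the basement membrane proteoglycan perlecan, was negative at -0.35 ± 0.045. Of 31 matrix proteases and inhibitors 14 were negative and 8 positive (median -0.18). SERPINB13, an inhibitor of cysteine proteases, had 3.66, 3.62 and 4.71 CPM in CAL-27 controls and 10.3, 12.4 and 11.3 with shTTK, and 119, 115 and 112 against 77.9, 81.4 and 89.1 in SCC-15. It rose in one line and fell in the other, with an interaction of -1.99 ± 0.13 (edgeR adjusted p = 4.2e-22).

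Among genes of mitosis and DNA replication, called changes were nearly all falls in CAL-27 and went both ways in SCC-15. Over the 107 different genes of the spindle checkpoint, G2 and mitosis and S phase lists, 46 fell and 1 rose in CAL-27, while 20 fell and 26 rose in SCC-15. The interaction was positive for 42 and negative for 9. Changes were small: the median interaction was 0.067 for 34 spindle checkpoint and kinetochore genes, 0.098 for 35 G2 and mitosis genes and 0.137 for 38 S phase genes. CDC20, the activator of the anaphase-promoting complex that the checkpoint holds back, had 309, 304 and 311 CPM in CAL-27 controls and 269, 265 and 276 with shTTK, and 331, 334 and 326 against 386, 381 and 374 in SCC-15. It fell in CAL-27 and rose in SCC-15, with log2 changes of -0.19 and 0.20 and an interaction of 0.39 ± 0.044 (edgeR adjusted p = 1.52e-11).

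The negative members of the checkpoint list were TTK itself, KNTC1, INCENP and MAD2L1. KNTC1, a subunit of the complex that brings dynein to kinetochores, had 77.3, 73.9 and 79.95 against 91.8, 93.6 and 95.98 in CAL-27 and 103, 98.7 and 88.8 against 73.7, 75.9 and 73.4 in SCC-15, an interaction of -0.67 ± 0.066. SPDL1, spindly, which works in the same step, was positive at 0.60 ± 0.082. MYBL2, a transcription factor of cell cycle genes, and CDC25B, a phosphatase that activates CDK1, were positive at 0.57 ± 0.046 and 0.47 ± 0.046, and both lie on chromosome 20. KIF23, a kinesin of cytokinesis, was negative at -0.53 ± 0.058 and lies on chromosome 15. Outside chromosomes 4, 12, 15, 17 and 20, 7 of 20 G2 and mitosis genes were positive, against 14 of 35 in all, and 2 of 23 checkpoint genes were negative.

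In S phase, 22 of 38 genes fell in CAL-27 and none rose, while 11 rose and 7 fell in SCC-15. The interaction was positive for 17 and negative for 3. RRM2, the small subunit of ribonucleotide reductase, had 126, 126 and 129 CPM in CAL-27 controls and 99.8, 94.2 and 106 with shTTK, and 138, 138 and 139 against 141, 147 and 165 in SCC-15. UHRF1, which maintains DNA methylation, had 134, 134 and 129 against 108, 107 and 112, then 306, 311 and 312 against 336, 330.5 and 344. MCM4, a subunit of the replicative helicase, had 335, 315 and 326 against 286, 285 and 297, then 571, 562 and 563 against 633, 628 and 623. All 3 fell in CAL-27 and rose in SCC-15, with interactions of 0.48 ± 0.061, 0.40 ± 0.049 and 0.32 ± 0.043 (edgeR adjusted p = 2.75e-09, 3.14e-10 and 5.48e-09). Outside the 5 chromosomes 16 of 30 S phase genes were positive and 1 negative. Of the 3 negative S phase calls 1 was left without CAL-27 control replicate 1 or 2, CAL-27 shTTK replicate 1 or 3, SCC-15 control replicate 1 or 2, or SCC-15 shTTK replicate 3. Of 28 p53 targets 6 were positive and 3 negative (1 without CAL-27 control replicate 1). Positive members included CDKN1A, the inhibitor p21, at 0.54 ± 0.066, PLK2 at 0.57 ± 0.053 and BAX at 0.35 ± 0.076.

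For the pathways in the title of the series, the components were called at shares near the 29.6% of all tested genes. Of 33 NF-kB pathway components 7 were called (21.2%, 3 positive and 4 negative, or 2 negative without SCC-15 control replicate 2), and of 48 mTOR pathway components 15 (31.2%, 4 positive and 11 negative). IRAK1, a kinase of interleukin-1 receptor signalling, was positive at 0.35 ± 0.046, and OTULIN, a deubiquitinase of linear chains, negative at -0.39 ± 0.07. NFKB1, the p105 and p50 subunit, lies on chromosome 4 and was negative at -0.28 ± 0.065 (edgeR adjusted p = 0.000459); against the median of its chromosome it was at -0.0553 with no call (edgeR adjusted p = 0.612).

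NF-kB targets fell more often than they rose in each line. Of 35 tested, 20 fell in CAL-27 and 15 in SCC-15, with median changes of -0.17 and -0.20. The interaction was positive for 9 and negative for 11 (57.1% called), with a median of -0.028. ICAM1, an adhesion molecule for leukocytes, had 368, 397 and 380.1 CPM in CAL-27 controls and 329, 354 and 338 with shTTK, and 24.1, 23.9 and 22.99 against 9.97, 12.4 and 9.95 in SCC-15. C3, the central complement protein, had 1559, 1622 and 1626 against 1547, 1608 and 1539 in CAL-27 and 12.2, 11.8 and 9.85 against 4.199, 5.01 and 5.37 in SCC-15. Both fell mainly in SCC-15, with interactions of -0.97 ± 0.08 and -1.18 ± 0.091 (edgeR adjusted p = 1.07e-16 and 1.01e-17). TNFAIP2 rose in CAL-27 and fell in SCC-15, at -0.70 ± 0.046. Of the 11 negative members SERPINB2, SAA1, IL32, LCN2 and IL1B also had interactions beyond -1, and of the 9 positive ones CSF2, IL6, PTGS2 and LIF had interactions beyond 1. CSF2 and IL6 fell in CAL-27 with no call in SCC-15, PTGS2 rose in SCC-15 with no call in CAL-27, and LIF fell in CAL-27 and rose in SCC-15.

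Of 52 interferon-stimulated genes tested, 27 rose and 3 fell in CAL-27, and 16 rose and 12 fell in SCC-15. The interaction was negative for 23 and positive for 12, with a median of -0.20. UBE2L6, the conjugating enzyme of ISG15, had 105, 108 and 103 CPM in CAL-27 controls and 118, 126 and 122 with shTTK, and 40.8, 44.2 and 43.5 against 28.4, 24.5 and 29.7 in SCC-15, an interaction of -0.84 ± 0.076 (edgeR adjusted p = 2.45e-15). IFI6 had 37.7, 36.6 and 36.3 against 65.02, 68.2 and 63.4, then 18.7, 15.5 and 19.2 against 17.1, 15.7 and 14.3, an interaction of -1.01 ± 0.11. The IFITM genes were among the positive members, as given above for IFITM2. IFITM2 lies at the start of chromosome 11, where 23 of 40 neighbouring genes were positive and 1 was negative (median interaction 0.27). Of 20 MHC class I and peptide loading genes 6 were positive and 5 negative. Positive calls fell to 3 without SCC-15 control replicate 1 or SCC-15 shTTK replicate 2, and outside the 5 chromosomes left out 3 of 17 were negative. HLA-B was negative at -0.31 ± 0.048, whereas CANX, the chaperone calnexin, and NLRC5, the transactivator of class I genes, were positive at 0.38 ± 0.039 and 0.57 ± 0.078.

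Among mTOR components, MTOR itself fell in CAL-27 and rose in SCC-15, with 178, 166 and 178 CPM and 151, 155 and 156 in CAL-27 and 203, 208 and 208 against 238, 225 and 224 in SCC-15. The shift was small, an interaction of 0.33 ± 0.05 (edgeR adjusted p = 2.19e-07). EIF4E, the cap-binding factor downstream of mTORC1, had 35.2, 29.99 and 30.1 against 29.8, 30.3 and 28.1 in CAL-27 and 68.98, 71.8 and 65.4 against 41.7, 44.01 and 42.1 in SCC-15, an interaction of -0.58 ± 0.09. EIF4E is on chromosome 4. SESN3, a sestrin that restrains mTORC1, was at -1.03 ± 0.15 and lies on chromosome 11. Outside the 5 chromosomes left out, 5 of 39 components were negative and 4 positive, against 11 and 4 of 48 in all, and against the chromosome median 2 were positive.

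The metabolic genes that mTORC1 activity raises were split. Of 41 tested, 13 were positive and 14 negative (65.9% called), with a median of -0.025. Among the negative members, SLC7A5 and SLC3A2, the chains of the leucine transporter, rose in CAL-27 and fell in SCC-15. SLC7A5 had 3063, 3072 and 3011 CPM in CAL-27 controls and 4685, 4491 and 4630.0 with shTTK, and 5999, 6058 and 6133 against 5613, 5491 and 5506 in SCC-15. SLC3A2 had 811, 813 and 807 against 1097, 1076 and 1109, then 1509, 1539 and 1541 against 1419, 1351 and 1341. Interactions were -0.72 ± 0.035 and -0.59 ± 0.039 (edgeR adjusted p = 1.1e-29 and 1.68e-21).

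Of 24 genes of cholesterol synthesis and uptake 22 fell and none rose in CAL-27, while 10 fell and 4 rose in SCC-15. The interaction was positive for 16 (70.8% of the list called in all) and negative for 1, SREBF2, with a median of 0.30. DHCR7, the last enzyme of cholesterol synthesis, had 458, 465 and 458 CPM in CAL-27 controls and 305, 298 and 332 with shTTK, and 130.0, 122 and 123 against 128, 122 and 115 in SCC-15. DHCR7 fell in CAL-27 with no call in SCC-15, and its interaction was 0.52 ± 0.053 (edgeR adjusted p = 8.18e-13). HMGCS1, an enzyme early in the pathway, fell in both lines without a called interaction.

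Glycolysis and hypoxia genes were called for 13 of 36 (4 positive, 9 negative). VEGFA, the vascular growth factor, went from 382, 379 and 354 to 232, 234 and 245 CPM in CAL-27 and from 58.7, 65.5 and 60.8 to 74.2, 77.7 and 72.8 in SCC-15, an interaction of 0.93 ± 0.057. ALDOA, the glycolytic aldolase, moved with it at 0.84 ± 0.13, and PFKFB3, which activates phosphofructokinase, moved against it at -0.39 ± 0.067. The mean level of ALDOA was only 26.7 against 22.8 CPM in CAL-27 and 9.4 against 14.3 in SCC-15. How completely ALDOA reads were counted is not known, since the handling of reads with several matches was not given. Of 38 ATF4 and unfolded protein genes 11 were positive and 13 negative, and against the chromosome median 7 were positive. CEBPB, a transcription factor of that response on chromosome 20, was positive at 0.61 ± 0.05, opposite in sign to SLC7A5, SLC3A2 and SLC7A11. SLC7A11, the cystine transporter, was at -0.99 ± 0.074.

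ERK feedback genes had the highest median interaction of the lists, 0.49. Many encode phosphatases and Sprouty proteins that ERK signalling induces and that restrain it. The list also holds genes of other kinds, such as CCND1 and the untested ETV1 and EPHA4. Of 19 tested, 8 fell and 1 rose in CAL-27, and 12 rose and 2 fell in SCC-15; the interaction was positive for 11 and negative for 1, SPRY1, which lies on chromosome 4. SPRY4 had 11.2, 8.88 and 10.5 CPM in CAL-27 controls and 5.54, 3.43 and 3.81 with shTTK, and 1.94, 2.12 and 2.05 against 2.92, 3.802 and 2.91 in SCC-15. CCND1, cyclin D1, had 246, 226 and 225 against 178, 166 and 183, then 155, 159.5 and 159 against 181, 200.6 and 191. Both fell in CAL-27 and rose in SCC-15 with no overlap of groups, as DUSP4 did. Interactions were 1.91 ± 0.27 and 0.68 ± 0.054 (edgeR adjusted p = 2.31e-08 and 1.04e-16).

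Upstream of ERK, EGFR went the other way. EGFR had 1096, 1082 and 1067 CPM in CAL-27 controls and 1294, 1293 and 1250.0 with shTTK, and 480.1, 492 and 498 against 332, 342 and 348 in SCC-15. It rose in CAL-27 and fell in SCC-15, an interaction of -0.77 ± 0.041 (edgeR adjusted p = 1.6e-26). Of 12 tested genes of the EGFR family and its ligands 6 were negative and 3 positive, but outside the 5 chromosomes left out 2 of 6 were negative and 3 positive. The ligand NRG1 was negative at -1.18 ± 0.099, and LRIG1, a membrane protein that lowers EGFR, positive at 0.69 ± 0.16. Of 30 immediate early and AP-1 genes 8 were negative and 4 positive (40% called), and the median change was 0.22 in CAL-27 and 0.23 in SCC-15, with 14 and 16 of the 30 called up. The 4 positive calls became 7 without CAL-27 control replicate 1, and 2 without CAL-27 shTTK replicate 3, SCC-15 shTTK replicate 1 or SCC-15 shTTK replicate 2. The negative members included KLF2, KLF4 and KLF5, and KLF2 was at -1.69 ± 0.12, with a rise in CAL-27 and a fall in SCC-15. KLF5 rose from 79.4, 82.8 and 78.5 to 138, 132 and 142 CPM in CAL-27 and was at 494, 481 and 478 against 494, 493 and 506 in SCC-15 with no call.

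YAP and TEAD targets were positive for 11 of 26 and negative for 7, with a median of 0.17. NT5E, the ecto-enzyme CD73, had 179, 169 and 172 CPM in CAL-27 controls and 76.8, 78.1 and 83.1 with shTTK, and 12.9, 12.97 and 12.1 against 14.6, 18.7 and 20.3 in SCC-15, an interaction of 1.63 ± 0.099 (edgeR adjusted p = 2.87e-21). AXL, a receptor tyrosine kinase, had 245, 219 and 211 against 99.8, 95.5 and 91.9, then 13.4, 14.3 and 15.3 against 14.8, 13.1 and 13.6, an interaction of 1.18 ± 0.096. PTPN14, a phosphatase that holds back YAP, was negative at -0.89 ± 0.055. In TGF-beta and activin signalling 10 of 25 were positive and 3 negative (8 and 1 of 20 outside the 5 chromosomes left out). SKIL, a repressor induced by TGF-beta, and LTBP3, which anchors latent TGF-beta, were positive at 0.88 ± 0.096 and 0.62 ± 0.065, and SMAD3, a transducer of the pathway, negative at -0.36 ± 0.05.

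Of 19 Notch pathway genes 6 rose and 1 fell in CAL-27, while 2 rose and 8 fell in SCC-15. The interaction was negative for 8 and positive for 2 (1 without CAL-27 control replicate 2, CAL-27 shTTK replicate 2 or 3, any SCC-15 control or SCC-15 shTTK replicate 1), with a median of -0.19, and 4 moved in opposite directions: NOTCH3, JAG1, JAG2 and DTX4. JAG1 had 96.9, 106 and 109 CPM in CAL-27 controls and 150.0, 163 and 151 with shTTK, and 96.5, 96.8 and 91.4 against 81.8, 77.7 and 77.6 in SCC-15. JAG2 had 68.4, 66.8 and 66.4 against 103, 102 and 99.5, then 287, 300.1 and 303 against 259, 243 and 238. DLL1, another ligand, rose in CAL-27 from 54.5, 54.3 and 54.3 to 112, 117 and 115 and was at 42.5, 40.9 and 45.4 against 42.9, 41.8 and 44.5 in SCC-15. Interactions were -0.84 ± 0.061, -0.86 ± 0.054 and -1.07 ± 0.074 (edgeR adjusted p = 1.9e-19, 5.69e-23 and 1.05e-20).

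Of 27 NRF2 antioxidant genes 11 were positive and 7 negative, with a median of 0.107. The aldo-keto reductases AKR1C1, AKR1C2 and AKR1C3, close paralogs whose reads may be shared, and AKR1B10 rose in CAL-27 and fell in SCC-15. The ferritin chain FTL had 979, 1019 and 1025 CPM in CAL-27 controls and 701, 671 and 667 with shTTK, and 825, 806 and 825 against 874, 815 and 787 in SCC-15. FTL fell in CAL-27 and was not called in SCC-15, an interaction of 0.58 ± 0.044 (edgeR adjusted p = 1.25e-18).

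Cytosolic ribosomal protein genes were called for 27 of 78 (34.6%; 17 positive, 10 negative). RPL23 and RPL19, at -0.41 ± 0.045 and -0.37 ± 0.041, lie on chromosome 17, and RPLP2, at 0.50 ± 0.043, lies near the start of chromosome 11. Positive calls fell to 11 without SCC-15 shTTK replicate 1, or without replicate 2, and negative calls to 6 without replicate 3. Outside the 5 chromosomes left out 3 of 61 were negative and 16 positive, and against the chromosome median positive calls fell to 11. Nuclear genes of oxidative phosphorylation were negative for 16 of 53 and positive for 3, led by UQCRB (-0.71 ± 0.065), NDUFV1 (-0.48 ± 0.051) and NDUFA4 (-0.41 ± 0.051). That list had 63 entries, and those not found under the symbols used were all ATP synthase subunits. Of 15 mitochondrially encoded genes 6 were negative and none positive, with MT-CO2 at -0.59 ± 0.038, MT-CO1 at -0.36 ± 0.044 and MT-CO3 at -0.28 ± 0.044. The share of counts from the mitochondrial genome was 4.24% to 4.32% in CAL-27 controls and 4.47% to 4.68% with shTTK, and 2.94% to 3.86% in SCC-15 controls and 2.35% to 2.69% with shTTK, highest within each SCC-15 group in the library numbered 1. Without CAL-27 control replicate 3, CAL-27 shTTK replicate 3 or SCC-15 control replicate 1, 1 of these genes was positive. Without the CAL-27 control replicate 1, or the SCC-15 shTTK replicate 2 or 3, 3 of these genes were negative, and without both SCC-15 libraries numbered 1, 12 were.

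Interactions were not spread evenly over the genome. For 13805 genes placed on chromosomes 1 to 22 and X, the median interaction was -0.227 on chromosome 4, -0.119 on 17, -0.0933 on 15 and -0.0797 on 12, and 0.124 on 20 and 0.105 on 19. The other chromosomes lay between -0.0222 and 0.0718. On chromosome 4, 154 of 457 genes were negative (33.7%) and 15 positive (3.28%), beside 13.8% and 15.8% of all tested genes. On chromosome 20, 123 of 384 were positive (32%) and 31 negative (8.07%).

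The shift came from SCC-15. On chromosome 4 the median change was -0.24 in SCC-15 and -0.0277 in CAL-27, and 82.5% of its genes were below 0 in SCC-15 against 56% in CAL-27. Each library showed it: relative to the mean of their controls, the medians of chromosome 4 genes were -0.264, -0.258 and -0.214 in the 3 SCC-15 shTTK libraries, and between -0.0113 and 0.0101 in the SCC-15 controls. On chromosome 20 the 3 shTTK libraries were at 0.148, 0.126 and 0.127. No test was applied to these medians, since genes of a chromosome are not replicates of a condition.

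**Figure D4:**
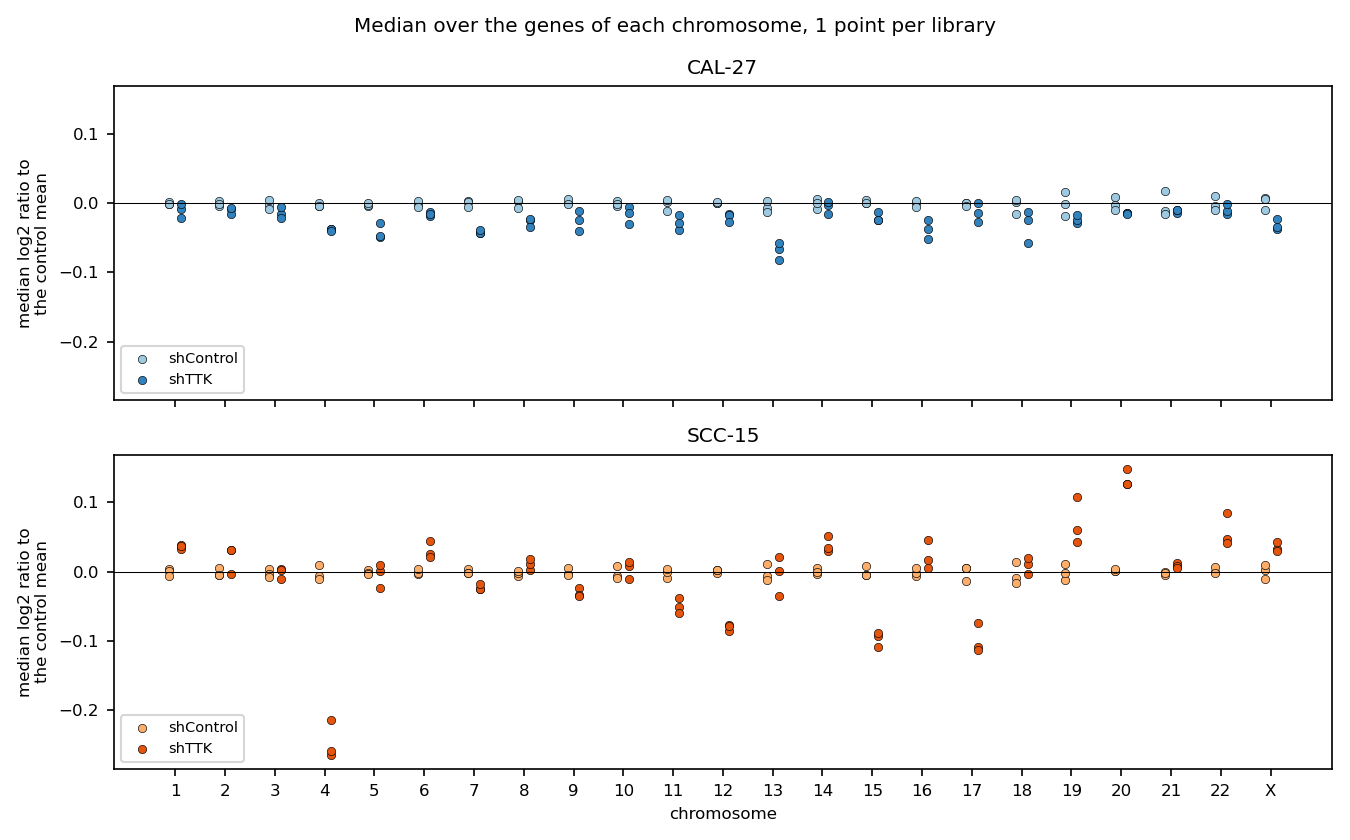
Median over the genes of each chromosome of the log2 ratio of a library to the mean of the controls of its line (CPM with 0.1 added), 1 point per library, CAL-27 above and SCC-15 below. The 3 SCC-15 shTTK points lie near -0.25 on chromosome 4 and above 0.1 on chromosome 20, while every CAL-27 shTTK point lies within 0.1 of 0.

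Within chromosomes the shift had edges. In 334 blocks of neighbouring genes (40 each, except that the last block of each chromosome held 43 to 79), the median change ranged from -0.136 to 0.14 in CAL-27 (SD 0.0455) and from -0.406 to 0.227 in SCC-15 (SD 0.0989), where 17 blocks were at or below -0.2 and 2 at or above 0.2; CAL-27 had none of either. On chromosome 4, 10 of 11 blocks were at or below -0.189 in SCC-15, and the block from 2.93 to 11.4 Mb was at -0.0126. On chromosome 17 the blocks from 28.9 to 40.3 Mb were at -0.215, -0.39 and -0.232, while the block from 17.5 to 20.4 Mb was at 0.183. The first block of chromosome 11, from 0.168 to 0.867 Mb, was at 0.227 in SCC-15 and had the highest median interaction of the 334 blocks (0.27). On chromosome 1 the SCC-15 medians were above 0 in all but 1 of the 26 blocks up to 159 Mb and below 0 in all 10 blocks from 160 Mb on. Copy number was not measured here, and its part in these values was not tested.

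**Figure D5:**
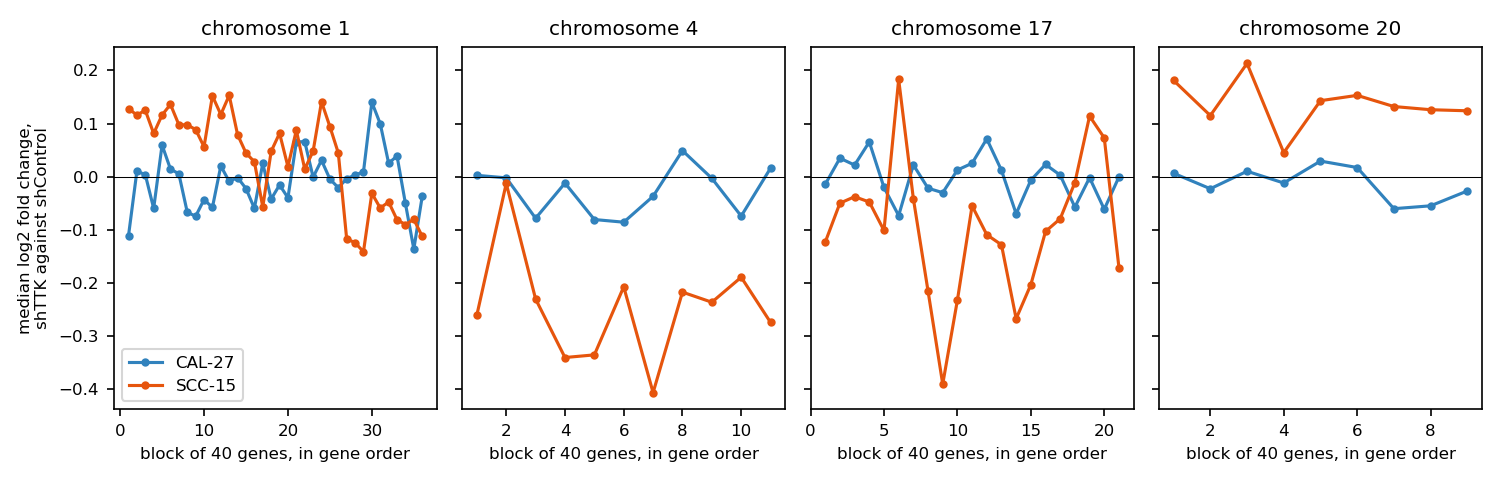
Median log2 change of shTTK against shControl in blocks of 40 neighbouring genes (more in the last block of a chromosome), in gene order along chromosomes 1, 4, 17 and 20, for CAL-27 (blue) and SCC-15 (orange). The SCC-15 line changes level within chromosomes 1 and 17, stays below 0 along chromosome 4 except near 0 in the second block, and stays above 0 along chromosome 20, while CAL-27 stays between -0.136 and 0.14.

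The leading interactions were larger than these shifts. KRT14, ZNF750 and MMP28 lie on chromosome 17, and their interactions of -5.44, -2.79 and -2.37 compare with a chromosome median of -0.119. The blocks that hold them had median interactions of -0.0613, -0.191 and -0.288. Of the 120 genes chosen for description, 111 were called for the interaction. Measured against the median of its chromosome, 118 of the 120 kept their direction and their side of the threshold, and NFKB1 and TIMP2 lost the call. A median over a whole chromosome does not take out shifts with edges within it, so small interactions may still hold a shift of their region. Over all genes, 3819 were then called and 780 moved in opposite directions, and 3424 of the 4117 calls were shared.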

How the data were processed

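Poly(A)-selected RNA of 12 libraries was sequenced as strand-specific paired ends of 150 bases, per the labels' protocols. The authors deposited unnormalized counts for each gene symbol; reads were trimmed by Trim Galore 0.6.6, aligned to hg38 by STAR 2.7.7a and counted by featureCounts 2.0.1, per the submitters' processing notes. The annotation, the strand setting and the handling of reads with several matches were not given in the sources used here. Of 58735 lines, 1568 repeat a symbol and 27 carry a date in place of a symbol; such lines were kept as separate features and never named. edgeR 4.0.16 in R 4.3.3 (filterByExpr on the 4 groups, TMM scaling, robust quasi-likelihood fit) was run on 16946 genes with 4 group means and 8 residual degrees of freedom, and two-sided p-values received Benjamini-Hochberg adjustment over all genes fitted. Standard errors are those of the fitted log2 changes. Values in CPM were computed from the counts and the TMM library sizes, and marker values from unscaled totals. Positions are from GENCODE release 29, and promoters from RefSeq. Members and lists were chosen with earlier results of these data known. Of 1060 list entries 1050 were found, 3 by another symbol, and 941 were tested. Genes were named by a rule: TTK; the 6 largest interactions per sign; the 8 largest opposite changes per direction without overlap; 3 per direction and line among changes of like sign but different size; up to 3 per list by adjusted p; and 5 per direction with a 95% interval within 0.5 of 0, all with at least 5 CPM in the highest group. Some genes that this rule chose are not reported here. Alternatives were RLE factors, DESeq2 1.42.0, limma-voom (limma 3.58.1), other count filters, the replicate number as a block, each library left out and both SCC-15 libraries numbered 1 left out, and, added after seeing the data, 5 chromosomes left out, and interactions against the chromosome median. The steps were tested on simulated data.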

Additional observations from a re-analysis of the deposited data

Results flagged for a closer look

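Each value here is a difference between the 2 lines under the same contrast, tested as the interaction in edgeR unless stated otherwise. It was called for 4117 genes, and 793 genes were called in opposite directions in the lines. TTK, the target of the hairpin, differed by -0.67 on the log2 scale, so the lines also differ in how far it was lowered.

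The genes that rose in CAL-27 and fell in SCC-15 had interactions of -5.44 for KRT14, -4.24 for ACKR3, -3.60 for GBP6, -2.83 for PPP2R2B, -2.79 for ZNF750, -2.67 for AKR1C2, -2.37 for MMP28 and -2.34 for IFI44L. Those that fell in CAL-27 and rose in SCC-15 had 3.16 for PXDN, 2.53 for IL11, 2.47 for PADI4, 2.06 for MGAT5B, 2.05 for NRP1, 1.93 for FN1, 1.90 for DUSP4 and 1.61 for GPAT3.

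The median over genes was above the control mean in every SCC-15 shTTK library and below it in every CAL-27 shTTK library for 9 of the 23 chromosomes. Their median interactions were 0.124 on chromosome 20, 0.105 on 19, 0.0718 on 16, 0.0511 on X, 0.0465 on 22, 0.0314 on 6, 0.0295 on 1, 0.0187 on 8 and 0.00205 on 21. Over all tested genes the median interaction was 0.0098, so chromosome 21 lay below it and chromosome 8 close to it. In CAL-27 the median change was below 0 on each of the 23 chromosomes, so that side of the pattern set few of them apart. On chromosome 4, which had the median interaction farthest from 0 (-0.227), the medians were below the control mean in the shTTK libraries of both lines. The difference between the lines was not tested for these medians.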

How the results depend on the processing

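The number of genes called for the interaction stayed within 1.5 times the 4117 of the reported fit under every alternative run: 4159 with RLE factors, 3760 with DESeq2, 3977 with limma-voom, 4247 with only the included genes in the fit, 3705 with no count filter and 3770 of 10981 genes at a mean of at least 50 counts in each line. Leaving out 1 library gave 3652 to 3910 calls and 654 to 756 genes in opposite directions, and leaving out both SCC-15 libraries numbered 1 gave 3696, of which 3421 were shared. Without the genes of chromosomes 4, 12, 15, 17 and 20, 3153 of 10961 were called, 59.4% of them positive against 53.4%. Here, and at a mean of at least 50 counts, the calls were those of the reported fit for the genes kept. Chromosomes 4, 12, 15 and 17 had negative median interactions and chromosome 20 a positive one, so a higher positive share follows from that choice.

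Correlations of library deviations showed no pairing of the samples by replicate number. They lay between -0.0042 and 0.0255 for same-numbered control and shTTK libraries, and between -0.023 and 0.0223 for differently numbered ones. Such a correlation over many genes cannot exclude an effect shared by some of them. In SCC-15 the most distant library had the same number in both groups, and that library also had the highest mitochondrial share in each. With the number as a block within each line 4065 genes were called (770 opposite), and with a block over both lines 4069 (777 opposite).

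Of 2712 values of single named genes under the alternatives, 2709 kept their direction and side of the threshold. None of the called ones reversed, and SLIT2, NFKB1 and TIMP2 lost their calls as given above. The 2712 include 105 values at a mean of at least 50 counts and 87 outside the chromosomes left out. Both sets were taken over from the reported fit and could only stay the same, so they say nothing about stability. Of 1334 recomputed list counts 69 moved by more than 1.5 times, 56 of them counts of 6 or fewer. Counts above 2 that moved by so much without 1 library are given beside each list, and mitochondrially encoded genes had 11 negative members in place of 6 with the block within each line. The cause was not tested. Depth limits what low genes can show, as their median standard error of 0.385 in the lowest quartile of expression, against 0.0577 in the highest, puts it.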
